A study of Homo sapiens with 20 samples.

Results

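The comparison described here set the vehicle-treated arrays labelled L1236 against the vehicle-treated arrays of UHO-1 and SUP-HD1, and asked which transcripts lay above or below both other lines. The members were the vehicle arrays of these lines, chosen by their titles: 2 labelled L1236, 2 of UHO-1 and 2 of SUP-HD1, 6 of the 20 arrays of the series. All 3 are established cell lines labelled as classical Hodgkin lymphoma, grown in medium with serum. Every line, in every arm, stably carried FOXO1(3A)ER, a FOXO1 mutant that stays active, fused to the hormone-binding part of the oestrogen receptor, so no array shows cells without the transgene. The vehicle was ethanol for 24 h, and the matching arms received 4-hydroxytamoxifen (4-OHT), the ligand that activates the fusion, for the same time. The treatment text names cells with a different fusion, so the 24 h are given as each array's own label states them. Whether a line was 1 clone or a pool of transduced cells is not given in the sources used here.

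Classical Hodgkin lymphoma arises from germinal centre B cells that have lost most of the B cell programme. Its cells keep strong NF-kB, JAK-STAT and AP-1 activity, express the transcription factor IRF4, secrete chemokines and cytokines, and present antigen through MHC class II in many cases. L1236 is known as a line of B cell origin with rearranged immunoglobulin genes. T cells, by contrast, carry the CD3 chains of the T cell receptor complex, and immature T cells of the thymus make the CD1 surface proteins and the recombination enzymes RAG1, RAG2 and terminal transferase.

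The arrays labelled L1236 went against that label. Levels are given on the log2 scale of RMA, the robust multichip average, where 1 unit is a 2-fold difference. CD3E, a signalling chain of the T cell receptor complex, stood at 12.19 and 12.25 in the arrays labelled L1236, against 5.49 and 5.69 in UHO-1 and 5.27 and 5.32 in SUP-HD1. CD1B, a lipid-presenting protein of immature thymic T cells, stood at 11.13 and 11.05, against 3.73 and 3.91 in UHO-1 and 3.96 and 3.94 in SUP-HD1. The groups were far apart and did not overlap for either gene. IRF4, which Hodgkin cells express strongly, showed the opposite picture, with 6.48 and 6.14 in the arrays labelled L1236, 12.17 and 12.24 in UHO-1 and 12.11 and 12.13 in SUP-HD1. The 4-OHT arrays labelled L1236, which are separate arrays, looked alike, with means of 12.15 for CD3E and 6.37 for IRF4. The other Hodgkin lines of the series, KM-H2 and L428, were normalised in a separate run and are therefore only set beside these values: their 8 arrays held CD3E at 4.35 to 4.76 and IRF4 at 11.04 to 11.69. For some genes described below, a low or a high level was not particular to the arrays labelled L1236, and those given here are examples. The same 8 arrays held CD274 at 4.64 to 6.25, PAX5 at 6.03 to 6.81, JAK2 at 6.03 to 7.56 and CCL22 at 5.35 to 5.66. The vehicle arrays among them held FBXO32 at 6.42 to 6.63. TNFAIP3 stood at 5.69 and 5.60 in the KM-H2 vehicle arrays but at 11.41 and 11.42 in those of L428. Among genes that were higher, LEF1 stood at 10.95 and 11.08 in the KM-H2 vehicle arrays and at 7.86 and 7.76 in those of L428. CR2 stood at 10.62 and 10.54 in the KM-H2 vehicle arrays, against 4.53 in both of L428. The origin of the cells on the arrays labelled L1236 was not determined. No array labelled L1236 was free of the pattern of CD3E and IRF4, so no result below could be given without it. Each is a result about the arrays labelled L1236.

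**Figure D1:**
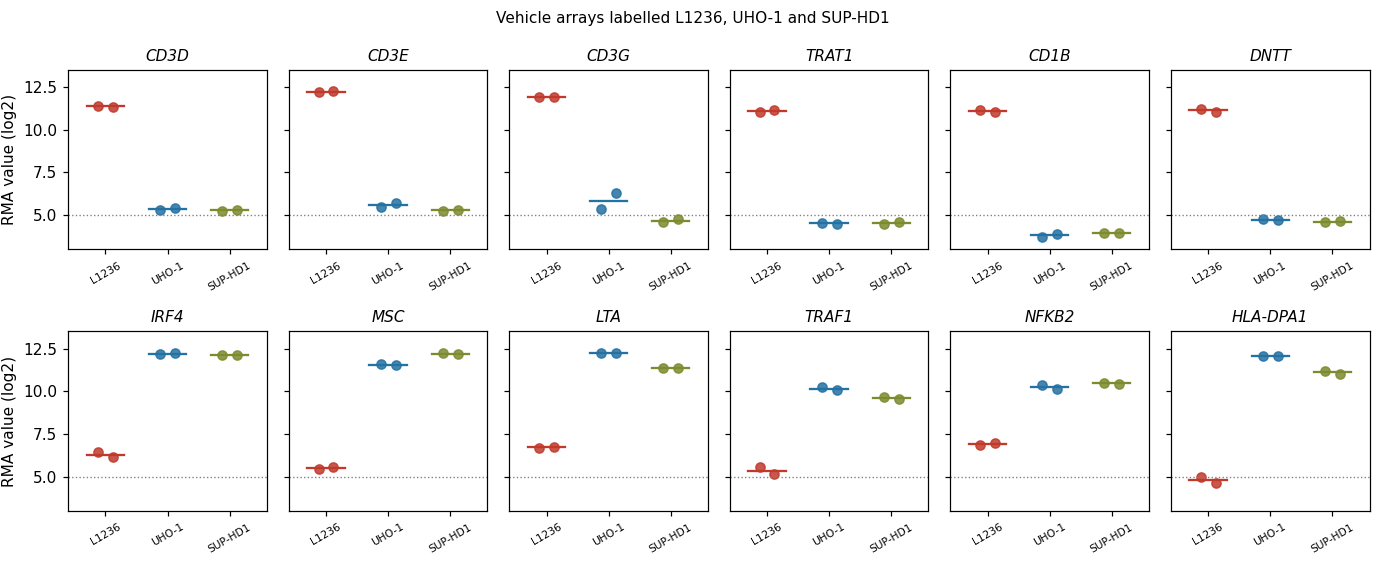
RMA log2 values (vertical axis) of 12 genes in the vehicle arrays labelled L1236, UHO-1 and SUP-HD1. Points are single arrays, short lines are means of 2 arrays, and the dotted line is the floor of 5 used to keep genes. The upper row holds T cell genes, for which both arrays labelled L1236 lie above the other 4 (CD3E at 12.19 and 12.25), and the lower row holds genes of Hodgkin cells, NF-kB signalling and antigen presentation, for which they lie below (IRF4 at 6.48 and 6.14).

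The promoters below are shown because they belong to genes that were lower in the arrays labelled L1236 than in both other lines. The first pair are MHC class II genes, which are switched on through CIITA, and NF-Y, one of the factors that hold CIITA at their promoters, reads the letters ATTGG. The second pair, a chemokine and a TNF receptor, are genes that NF-kB is known to induce, and its sites have the form GGGNNNNNCC. Each sequence is the 200 bases before the RefSeq start site on GRCh38.p14, read 5′ to 3′ in the direction of the gene, with every match to the motif on either strand in capitals. Overlapping matches run together.
HLA-DPB1, chr6:33075790-33075989, plus strand: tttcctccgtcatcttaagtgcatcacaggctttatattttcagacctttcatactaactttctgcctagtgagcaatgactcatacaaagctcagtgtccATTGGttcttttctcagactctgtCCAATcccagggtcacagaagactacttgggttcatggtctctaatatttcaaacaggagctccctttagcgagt
HLA-DMA, chr6:32953098-32953297, minus strand: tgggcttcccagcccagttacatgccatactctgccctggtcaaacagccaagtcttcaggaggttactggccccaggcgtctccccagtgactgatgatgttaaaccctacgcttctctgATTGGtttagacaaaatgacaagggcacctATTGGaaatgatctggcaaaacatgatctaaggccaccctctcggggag
CXCL10, chr4:76023498-76023697, minus strand: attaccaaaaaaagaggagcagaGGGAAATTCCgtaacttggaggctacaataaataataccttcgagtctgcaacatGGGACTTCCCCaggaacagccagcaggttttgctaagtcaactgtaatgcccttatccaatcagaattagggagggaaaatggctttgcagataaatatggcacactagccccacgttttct
TNFRSF9, chr1:7940840-7941039, minus strand: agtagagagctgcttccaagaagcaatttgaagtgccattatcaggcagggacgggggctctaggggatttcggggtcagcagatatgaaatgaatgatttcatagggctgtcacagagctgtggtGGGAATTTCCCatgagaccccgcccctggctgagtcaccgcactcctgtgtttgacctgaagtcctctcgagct
ATTGG or its reverse complement CCAAT occurred in 28.05% of the 34780 distinct promoter windows of this length, and GGGNNNNNCC on either strand in 49.5%. HLA-DPB1 and HLA-DMA held 2 matches each to ATTGG, CXCL10 held 3 matches, some of them overlapping, to GGGNNNNNCC and TNFRSF9 held 2. Of the windows searched and not printed, HLA-DOA and HLA-DMB held 1 match each to ATTGG, and the 2 promoters of LTA held 1 and 3 matches to GGGNNNNNCC. A match is a description of the letters only, and no binding was measured.

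Of 15482 genes with a log2 value of at least 5 in at least 2 of the 6 vehicle arrays, 3087 (19.9%) were higher in the arrays labelled L1236 than in both other lines, and 2487 (16.1%) were lower than in both, 36% together. A gene counted as beyond both lines when the differences from UHO-1 and from SUP-HD1 each passed limma at a Benjamini-Hochberg adjusted p below 0.05 and had the same sign. Its distance is the smaller of those differences, so it says how far the arrays labelled L1236 stood from the nearer line. The shares of 19.9% above and 16.1% below are the background for every list count given further on. A distance of at least 1 log2 unit was found for 870 genes above (5.62%) and 744 genes below (4.81%). At 4 units or more there were 90 above and 68 below, and at 6 units or more 22 above and 6 below. By the same rule and size, UHO-1 lay above both others for 510 genes and below for 333, and SUP-HD1 above for 714 and below for 494. Against the mean of UHO-1 and SUP-HD1, 4793 genes were higher (31%) and 4438 lower (28.7%), a count that also holds genes on which those lines differ from each other. The 2 arrays of a line shared almost all of their pattern across genes, with Pearson correlations of 0.995 to 0.997. UHO-1 and SUP-HD1 correlated at 0.869 to 0.875, and the arrays labelled L1236 correlated with either at 0.784 to 0.826. These correlations are across genes within arrays and describe the arrays only.

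Each line was measured on 2 arrays and each label stands for 1 line, so the tests rest on the scatter of these arrays alone, and nothing beyond a remark that the work was done 2 times says that they came from separate cultures. They do not measure how far Hodgkin lines vary in general.

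**Figure D2:**
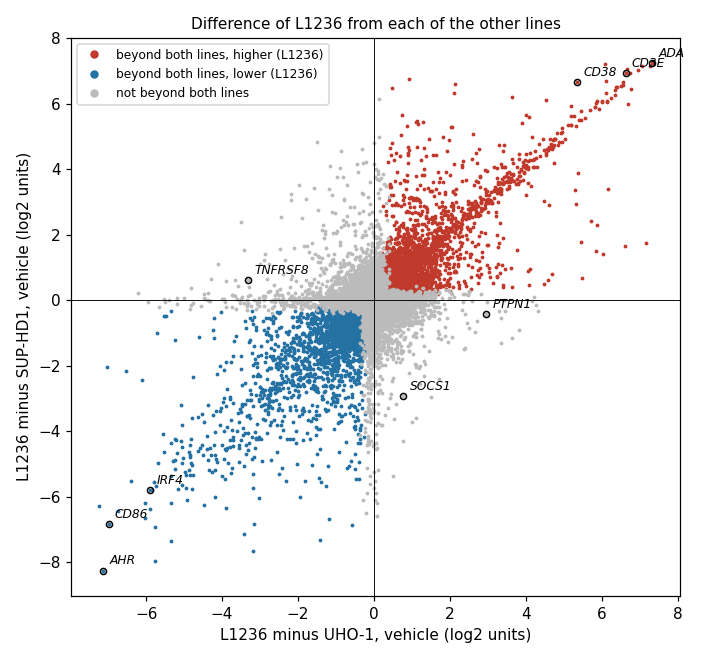
Difference of the arrays labelled L1236 from UHO-1 (horizontal axis) and from SUP-HD1 (vertical axis) in log2 units, 1 point per tested gene. Red and blue points are the 3087 genes above and the 2487 genes below both lines, grey points are the rest, and circled genes are named. Both axes share the L1236 arrays, and ADA and AHR lie at opposite ends while TNFRSF8, SOCS1 and PTPN1 lie between the other lines.

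The 15 genes that stood highest above both lines were headed by genes of T cells and of the thymus. ADA, the adenosine deaminase that lymphocyte precursors need, stood at 12.56 and 12.77, against 5.34 and 5.32 in UHO-1 and 5.30 and 5.55 in SUP-HD1. Its distance of 7.24 log2 units is a 151-fold difference from the nearer line (limma SE of the pairwise difference 0.13, larger adjusted p 1e-17). CD1B was 7.14 units above the nearer line, and CD1E, of the same lipid-presenting family, 6.45 units. DNTT, the terminal transferase that adds bases to antigen receptor genes during their assembly, stood at 11.22 and 11.02, against 4.75 and 4.75 in UHO-1 and 4.59 and 4.66 in SUP-HD1. RAG2, a subunit of the recombinase that cuts those genes, stood at 9.73 and 10.11, against 3.45 and 3.39 in UHO-1 and 3.34 and 3.39 in SUP-HD1. TRAT1, an adaptor of the T cell receptor complex, FYB1, an adaptor that links that receptor to integrins, CD96, a receptor of T and NK cells, and SLAMF6, a lymphocyte receptor, had distances of 6.57, 6.41, 6.73 and 6.25. The rest were ITM2A at 7.07, GPR174 at 6.94, GNAQ at 6.66, CD3E at 6.63, NDST3 at 6.57 and LPAR6 at 6.36. These include 3 genes of signalling through G proteins: GNAQ is an alpha subunit, GPR174 is a lysophosphatidylserine receptor of lymphocytes and LPAR6 is a lysophosphatidic acid receptor. The genes were chosen for their distances, so the distances are a description. For CD1B, DNTT, RAG2, ITM2A, GPR174, CD96, TRAT1, NDST3, FYB1, LPAR6 and SLAMF6 the other lines lay below the floor of 5, near the background of the array. The size of those distances therefore depends on where that background lies. These genes passed the floor only through the arrays labelled L1236, in which they are high. The values of ADA in the other lines lay just above that floor.

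The 15 genes that stood lowest were headed by AHR, the ligand-activated aryl hydrocarbon receptor. It stood at 4.14 and 3.91 in the arrays labelled L1236, against 11.24 and 11.06 in UHO-1 and 12.41 and 12.15 in SUP-HD1, a distance of -7.13 from the nearer line (larger adjusted p 9.31e-19 by limma). CD86, a co-stimulatory ligand of antigen-presenting cells, followed, with 4.03 and 4.14, against 11.14 and 11.001 in UHO-1 and 10.97 and 10.87 in SUP-HD1. HLA-DPA1, an MHC class II alpha chain, stood at 4.99 and 4.65, against 12.08 and 12.05 in UHO-1 and 11.18 and 11.03 in SUP-HD1. For these 3 genes the arrays labelled L1236 lay below the floor of 5, near the background of the array, and the other lines lay above 10. Below that floor, too, lay the arrays labelled L1236 for DNAJC15, PLA2G4A, RIPK2, IL13RA1, CXCL10, MCOLN2, ABCD2 and MYOF, given next. The size of all these distances therefore depends on where the background lies. MSC, a repressor of B cell factors in Hodgkin cells, had a distance of -6.02, RIPK2, a kinase that relays NOD receptor signals to NF-kB, -5.81 and IRF4 -5.81. IL13RA1, a receptor chain for interleukin 13, had -5.77, the interferon-induced chemokine CXCL10 -5.76 and TNFRSF9, the co-stimulatory receptor 4-1BB, -5.35. The rest had mixed roles: DNAJC15 (-6.42), the phospholipase PLA2G4A (-6.03), the imprinted gene PEG10 (-5.89), the ion channel MCOLN2 (-5.67), the peroxisomal transporter ABCD2 (-5.55) and MYOF (-5.54), a membrane repair protein.

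T and NK cell markers were the list on which the arrays labelled L1236 were highest most often after the small GIMAP family. Of 19 tested markers 14 were above both lines, against 19.9% of all genes, 0 were below, and the median difference from the mean of the lines was 3.75, against -0.00423 over all genes tested. Without the floor 15 of 23 markers were above and the median was 1.93, since markers that were low in every line then entered. The mean log2 level over the 19 markers was 9.06 and 9.08 in the arrays labelled L1236, 6.07 to 6.17 in UHO-1 and 5.74 to 5.89 in SUP-HD1. CD3D stood at 11.37 and 11.33, against 5.28 and 5.40 in UHO-1 and 5.27 and 5.31 in SUP-HD1. CD3G stood at 11.91 in both arrays, against 5.35 and 6.30 in UHO-1 and 4.58 and 4.80 in SUP-HD1. All 3 CD3 chains were thus well separated, and UHO-1 varied most for CD3G. The scavenger-type receptor CD5 had a distance of 4.95, CD2, the receptor for CD58 and CD48, 4.18 and ZAP70, the kinase that binds the phosphorylated CD3 chains, 4.61. Cytotoxic genes of the list did not lie beyond both lines: GZMB averaged 6.02, against 6.17 and 6.08 in the lines, PRF1 6.06 against 6.15 and 5.80, and GNLY 5.44 against 5.25 and 5.26. The following genes were chosen after their values were seen, so their direction is a description only. LCK, CD28 and CD8A among them are already counted in the list of 19. LCK, the kinase that starts T cell receptor signalling, had a distance of 4.01, the co-stimulatory receptor CD28 3.63, CD7 1.86 and CD8A 1.45. CD1A had 5.44, the recombinase subunit RAG1 2.31, BCL11B, a factor that in mice commits precursors to the T lineage, 3.54, and CD34, a marker of blood precursors, 3.49. CD4 did not lie beyond both lines, with a mean of 5.73 in the arrays labelled L1236, 10.18 in UHO-1 cells and 5.70 in SUP-HD1.

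GIMAP genes, which encode GTPases of lymphocyte survival, were above both lines for 5 of 5 tested members. GIMAP6 stood at 9.73 and 9.88, against 5.06 and 5.08 in UHO-1 and 4.76 and 4.99 in SUP-HD1. GIMAP7 had a distance of 4.42 and GIMAP2 of 4.07. Other regulators of blood cell identity were higher as well. TAL1, a factor of blood stem cells that is silent in mature lymphocytes, averaged 8.28, against 5.81 in UHO-1 and 5.70 in SUP-HD1. RUNX1 had a distance of 2.57 and STAT4, which relays interleukin 12, 3.25. These belong to the 19 regulators listed as inappropriate for B cells but found in Hodgkin cells, of which 6 were above and 6 below. The ones below included ID2, an inhibitor of E proteins, with a distance of -3.71, RORA with -1.43 and GATA3 with -0.56. GATA3, a T cell factor, was still at 9.80 and 9.90 in the arrays labelled L1236, against 10.99 and 10.87 in UHO-1 and 10.50 and 10.32 in SUP-HD1.

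Hodgkin cell markers showed the reverse. Of 21 tested markers 19 were below both lines, against 16.1% of all genes, 0 were above, and the median difference was -2.99. The mean log2 level over the list was 6.78 and 6.89 in the arrays labelled L1236, 10.18 to 10.23 in UHO-1 and 9.85 to 9.87 in SUP-HD1. LTA, the lymphotoxin alpha ligand, stood at 6.69 and 6.77, against 12.26 and 12.24 in UHO-1 and 11.35 and 11.37 in SUP-HD1. TRAF1, an adaptor of TNF receptors, stood at 5.56 and 5.16, against 10.24 and 10.10 in UHO-1 and 9.65 and 9.56 in SUP-HD1. LGALS1, the immunosuppressive galectin 1, had a distance of -4.61, the interleukin 21 receptor IL21R -4.36 and the CD27 ligand CD70 -2.50. TNFRSF8, which encodes CD30, the defining surface marker of Hodgkin cells, was one of the exceptions: it stood at 7.84 and 7.69 in the arrays labelled L1236, 11.12 and 11.02 in UHO-1 and 7.08 and 7.21 in SUP-HD1. It was therefore lower than in UHO-1 and higher than in SUP-HD1 (differences -3.31 and 0.62, larger adjusted p 4.68e-05 by limma).

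**Figure D3:**
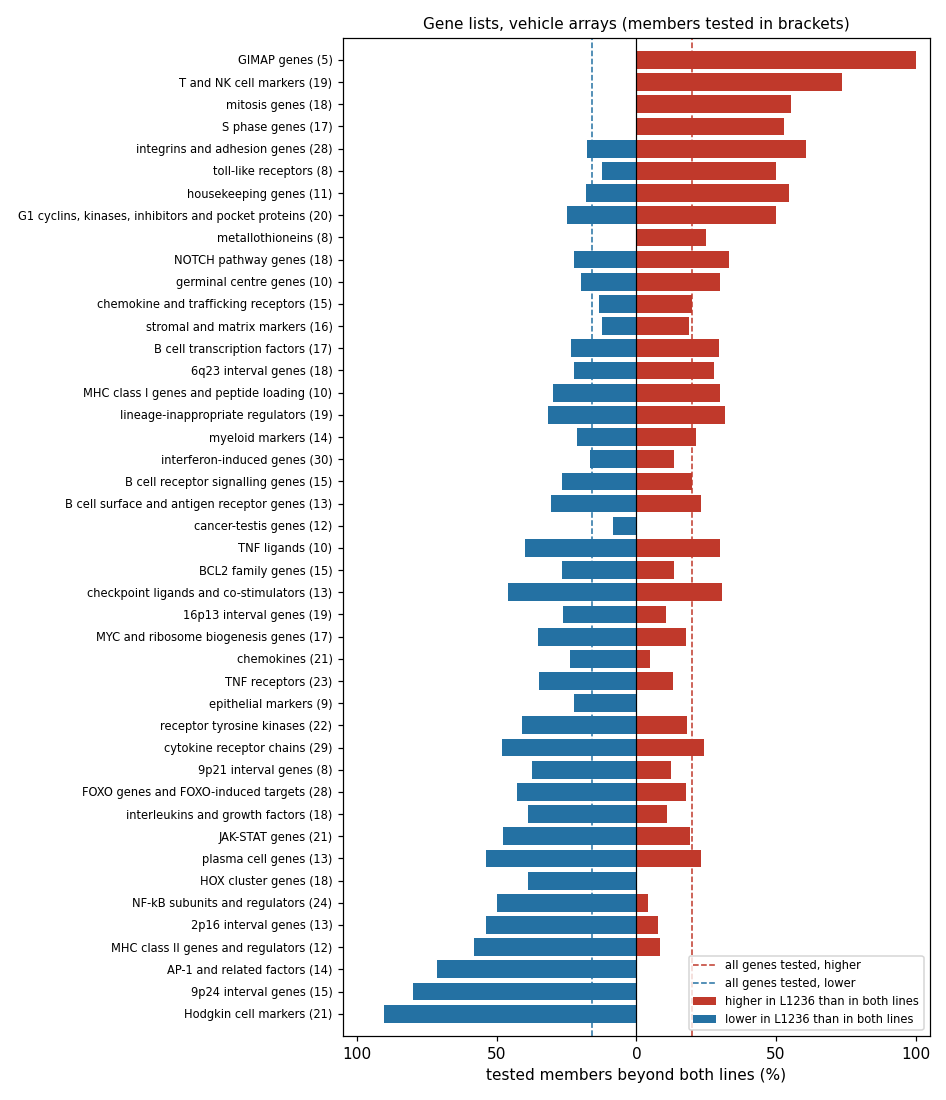
Percentage of the tested members of each gene list that lay above (red, right) or below (blue, left) both lines in the arrays labelled L1236, with the number of members tested in brackets. Dashed lines are the same percentages over all 15482 genes, 19.9% and 16.1%. T and NK cell markers (14 of 19 above) and Hodgkin cell markers (19 of 21 below) stand near opposite ends.

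B cell genes did not move one way. Among 13 tested B cell surface genes 3 were above and 4 below, beside 19.9% and 16.1% of all genes, with a median difference of -0.026. CD79A, a signalling chain of the B cell receptor, stood at 9.28 and 9.39, against 6.23 and 5.997 in UHO-1 and 6.75 and 6.51 in SUP-HD1. CD79B, its partner chain, had a distance of 1.33 and CR2, a complement receptor, 3.58. CD40, the receptor for T cell help, stood at 5.78 and 5.69, against 9.63 and 9.65 in UHO-1 and 8.99 and 8.92 in SUP-HD1, while CD37 and FCER2 had distances of -1.27 and -0.96. MS4A1, which encodes CD20, was below the floor in every group, with means of 4.08 in the arrays labelled L1236, 4.22 in UHO-1 cells and 4.00 in SUP-HD1. EBF1 had no probe set with 1 gene symbol. The mean log2 level over the 13 genes was 6.71 to 6.77, against 6.76 in UHO-1 and 6.58 in SUP-HD1.

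Downstream of the receptor 3 of 15 signalling genes were above, a share near the 19.9% of all genes, and 4 below, beside 16.1% of all genes. The kinase PRKCB stood at 10.68 and 10.73, against 5.40 and 5.65 in UHO-1 and 5.25 and 5.48 in SUP-HD1, and the exchange factor VAV1 and the phosphatase PTPN6 had distances of 2.77 and 1.62. LYN, the Src family kinase of B and myeloid cells, stood at 4.62 and 4.84, against 10.47 and 10.34 in UHO-1 and 9.77 and 9.65 in SUP-HD1. The adaptor DAPP1 and the exchange factor RASGRP3 had distances of -2.73 and -1.98. PRKCB and VAV1 also serve T cell receptor signalling.

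Of 17 B cell transcription factors 5 were above and 4 below, beside 19.9% and 16.1% of all genes. PAX5, the factor that maintains B cell identity, stood at 6.32 and 6.43, against 9.76 and 9.68 in UHO-1 and 9.56 and 9.29 in SUP-HD1. MEF2C had a distance of -2.45, SPIB of -1.61 and TCF4 of -1.24. ETS1, which is used in T and B cells alike, had a distance of 4.01, LEF1, a factor of WNT signalling and lymphocyte precursors, 2.89 and BCL11A 0.87. Among 10 germinal centre genes 3 were above and 2 below, beside the same background: the receptor P2RY8 had a distance of 5.12, MYB 1.88, LMO2 0.51 and the repressor BCL6 -1.17. LMO2 missed the threshold without UHO-1 vehicle replicate 2 (adjusted p 0.0647 by limma).

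Plasma cell genes were below for 7 of 13 tested members, beside 16.1% of all genes, and above for 3, beside 19.9%. PRDM1, a transcriptional repressor that drives plasma cell differentiation, stood at 5.06 and 5.59, against 9.76 and 9.70 in UHO-1 and 9.48 and 9.46 in SUP-HD1. ELL2, an elongation factor of antibody secretion, had a distance of -4.84 and the survival kinase PIM2 -2.95. CD38, an enzyme of the cell surface found on plasma cells and on immature T cells, stood at 12.08 and 11.95, against 6.47 and 6.85 in UHO-1 and 5.25 and 5.45 in SUP-HD1. MZB1 and CD27 had distances of 2.59 and 0.74.

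NF-kB genes were below both lines for 12 of 24 tested members and above for 1. NFKB2, a subunit of the alternative pathway, stood at 6.84 and 6.99, against 10.37 and 10.14 in UHO-1 and 10.51 and 10.43 in SUP-HD1. The classical subunit NFKB1 had a distance of -2.89, the kinase MAP3K14 -2.52 and the co-activator BCL3 -2.89. The feedback inhibitors NFKBIA, which holds NF-kB in the cytoplasm, and TNFAIP3, a ubiquitin-editing enzyme that Hodgkin lymphoma often loses, had -2.78 and -1.95. The kinase IKBKE was the exception above both lines, with a distance of 0.41, and 2 members were above without SUP-HD1 vehicle replicate 1. AP-1 and related factors were below for 10 of 14 and above for 0, with a median difference of -1.35. JUN stood at 5.95 and 6.19, against 9.96 and 9.95 in UHO-1 and 10.63 and 10.54 in SUP-HD1. JUNB had a distance of -2.59, BATF -2.03, BATF3 -1.71 and FOSB -1.30. IRF4 counts in this list and among the plasma cell genes. Lists share other members too. JUNB and BATF3 count also among the Hodgkin cell markers, and IL13RA1 counts there and among the cytokine receptor chains. The counts of these lists are therefore not separate results.

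JAK-STAT genes were below for 10 of 21 and above for 4, beside 16.1% and 19.9% of all genes. The receptor-associated kinase JAK2, which is amplified in some Hodgkin lymphomas, stood at 6.81 and 7.20, against 8.03 and 7.92 in UHO-1 and 9.71 and 9.63 in SUP-HD1. The feedback inhibitors SOCS3 and CISH had distances of -1.93 and -1.09 and the kinase PIM1 -1.88. SOCS1 and the phosphatase PTPN1, negative regulators that Hodgkin lymphoma often mutates, lay between the lines: SOCS1 averaged 7.57, against 6.80 in UHO-1 cells and 10.51 in SUP-HD1, and PTPN1 averaged 10.07, against 7.11 in UHO-1 and 10.49 in SUP-HD1.

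Cytokine receptor chains were below for 14 of 29 and above for 7, beside 16.1% and 19.9% of all genes. IL3RA stood at 4.38 and 4.55, against 9.80 and 9.70 in UHO-1 and 9.36 and 9.41 in SUP-HD1, and IL10RA and IL5RA had distances of -4.28 and -3.56. TGFBR2, a receptor for the growth inhibitor TGF-beta, had a distance of 3.55. Among 18 interleukins and growth factors 7 were below and 2 above, beside 16.1% and 19.9% of all genes. Distances were -3.93 for IL6, -3.19 for HGF, -2.62 for EBI3, -2.04 for IL13 and -1.61 for VEGFA. Of the 18 genes, 1 was above without UHO-1 vehicle replicate 1 or without SUP-HD1 vehicle replicate 1. Chemokines were below for 5 of 21, beside 16.1% of all genes, and above for 1. CCL5 stood at 5.11 and 5.09, against 10.65 and 10.68 in UHO-1 and 9.14 and 9.22 in SUP-HD1. CCL22 and CCL17, which draw CCR4-bearing T cells, had distances of -0.998 and -0.56, since SUP-HD1 itself was low for both (CCL22 7.37 and CCL17 7.82 on average, against 12.07 and 9.87 in UHO-1). CCL28 was above, at a distance of 1.31.

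Receptors that position lymphocytes were above for 3 of 15 and below for 2, shares near the 19.9% and 16.1% of all genes. CCR9, which guides cells to the gut and thymus, stood at 10.73 and 10.66, against 4.58 and 4.54 in UHO-1 and 4.52 and 4.74 in SUP-HD1. CCR7, the lymph node homing receptor, stood at 8.66 and 8.61, against 12.83 and 12.82 in UHO-1 and 12.72 and 12.62 in SUP-HD1. GPR183 had a distance of -3.87 and SELPLG, the selectin ligand of T cells and other leukocytes, 1.88. S1PR1, the receptor for leaving lymphoid tissue, had a distance of 0.30 and missed the threshold without SUP-HD1 vehicle replicate 2 (adjusted p 0.111 by limma). Adhesion genes were above for 17 of 28 and below for 5, the latter a share near the 16.1% of all genes. Their median difference was 1.06, and it was 1.73 with a floor of 6 and 2.01 with a floor of 7. ITGAL and ITGB2, the chains of the integrin LFA-1, had distances of 4.12 and 4.07, ICAM3 4.15, CD48 3.94 and the "do not eat" signal CD47 1.47. ICAM1, the LFA-1 ligand that NF-kB induces, stood at 6.76 and 6.72, against 11.56 and 11.57 in UHO-1 and 11.70 and 11.71 in SUP-HD1.

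TNF receptors were below for 8 of 23 and above for 3, and TNF ligands below for 4 of 10 and above for 3. Over all genes 16.1% were below and 19.9% above. TNFRSF11A, the receptor RANK, had a distance of -3.20, the death receptor TNFRSF10A -1.43 and TNFRSF1A, the main TNF receptor, 2.34. TNF itself had -2.12, TNFSF8, the CD30 ligand, 2.04 and TNFSF4, the OX40 ligand, 1.42. Co-stimulatory and checkpoint genes were below for 6 of 13 and above for 4. CD274, the PD-1 ligand PD-L1, stood at 5.62 and 6.08, against 10.12 and 9.93 in UHO-1 and 11.91 and 11.80 in SUP-HD1. KM-H2 and L428, of the other normalisation run, held CD274 at 4.64 to 6.25. PDCD1LG2, the other PD-1 ligand, had a distance of -4.48 and CD80 of -4.25, while LGALS9 had 2.31. Both PD-1 ligand genes lie in the 9p24 interval, in which 12 of 15 tested genes were below and 0 above; it is a region that Hodgkin lymphomas often gain. SMARCA2 and ERMP1 of that interval had distances of -1.998 and -1.15. Copy number was not measured.

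In other intervals altered in Hodgkin lymphoma the counts were mixed, beside 16.1% of all genes below and 19.9% above. The shares below and above were 22.2% and 27.8% in 6q23 and 26.3% and 10.5% in 16p13. In 2p16, 7 of 13 genes were below and 1 above, with SANBR at a distance of -0.91. In 6q23, 4 of 18 were below and 5 above, with PERP, a target of p53, at -4.00; 3 were above without L1236 vehicle replicate 2 or without SUP-HD1 vehicle replicate 1. In 16p13, 5 of 19 were below and 2 above, with LITAF at -3.21 and ATF7IP2 at 1.68. In 9p21, 3 of 8 were below and 1 above. MTAP, a methionine salvage enzyme often lost with its neighbour CDKN2A, stood at 8.45 and 8.53, against 5.32 and 5.14 in UHO-1 and 5.44 and 5.57 in SUP-HD1. CDKN2A, which encodes the inhibitors p16 and ARF, had a distance of -0.71 and HACD4 of -1.13.

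MHC class II genes and their regulators were below for 7 of 12 and above for 1, with a median difference of -1.73. HLA-DPB1, whose promoter is printed above, stood at 6.11 and 5.80, against 11.10 and 11.15 in UHO-1 and 11.71 and 11.71 in SUP-HD1. HLA-DMA, which loads peptides onto class II, stood at 6.05 and 5.98, against 9.54 and 9.48 in UHO-1 and 10.30 and 10.25 in SUP-HD1. HLA-DMB, HLA-DQA1 and HLA-DOA had distances of -2.19, -0.86 and -0.82. CIITA, the master activator of class II transcription, had a smaller distance of -0.52, and RFXAP, a subunit of the RFX factor, was above both lines at 0.69. Near-identical HLA genes can share probes, so the single HLA values are uncertain. Of 10 MHC class I and peptide loading genes 3 were below and 3 above, beside 16.1% and 19.9% of all genes. The peptide transporter TAP1 had a distance of -1.75 and the class I activator NLRC5 -1.09, and B2M, the class I light chain, -0.27, which failed the threshold under median centring (adjusted p 0.0711) and without L1236 vehicle replicate 1 (0.0843).

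Interferon-induced genes were below for 5 of 30 and above for 4, shares near the background. The GTPases GBP2 and GBP4 went opposite ways, with distances of -2.42 and 3.22. IRF9, which relays interferon signals, had -1.65 and IFIH1, a sensor of double-stranded RNA, had -1.41. Toll-like receptors were above for 4 of 8 and below for 1, beside 19.9% and 16.1% of all genes. TLR3, a sensor of double-stranded RNA, had a distance of 1.00.

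NOTCH pathway genes were above for 6 of 18 and below for 4, beside 19.9% and 16.1% of all genes. NOTCH1, a receptor required for T cell development, stood at 10.53 and 10.62, against 9.90 and 9.90 in UHO-1 and 8.28 and 8.41 in SUP-HD1. Its targets DTX1 and HES1 had distances of 3.58 and 1.78. The ligand JAG1 had -2.20, and the co-activator MAML2 stood at 5.75 and 5.87, against 10.24 and 10.18 in UHO-1 and 10.36 and 10.33 in SUP-HD1. Receptor tyrosine kinases, several of which Hodgkin cells express aberrantly, were below for 9 of 22 and above for 4. The share above, 18.2%, was near that of all genes. PDGFRA had a distance of -4.14, MET -3.89, DDR2 -3.03 and EPHB1 -3.02, while EPHB6, found on T cells, had 3.94 and FGFR1 1.80.

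FOXO genes and their targets were below for 12 of 28, beside 16.1% of all genes, and above for 5, a share near the 19.9% of all genes. Whether the FOXO1 probe set also reads the transgene was not tested. FOXO1 itself stood at 10.63 and 10.50, against 10.36 and 10.41 in UHO-1 and 10.27 and 10.46 in SUP-HD1. Its distance of 0.18 was just inside the threshold (larger adjusted p 0.0436 by limma) and fell outside under 11 of the alternative settings, where adjusted p ran up to 0.301. MYC, the growth regulator, lay just outside with the same distance of 0.18 (larger adjusted p 0.066). ESR1, whose ligand-binding domain the fusion carries, averaged 5.58, against 5.72 and 6.83, and was not beyond both lines; its 2 probe sets disagreed in sign. FBXO32, a ubiquitin ligase that FOXO factors induce, stood at 6.65 and 6.77, against 11.75 and 11.75 in UHO-1 and 11.53 and 11.54 in SUP-HD1. The stress protein SESN3 and DEPP1 had distances of -2.86 and -2.38 and the insulin receptor INSR 1.22.

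Mitosis genes were above for 10 of 18 and S phase genes for 9 of 17, beside 19.9% of all genes and 6 of 11 housekeeping genes, with 0 below in both lists. The differences were small, with medians of 0.535 and 0.451. BUB1 had a distance of 1.05, TOP2A 0.60, RRM1 0.81 and GINS1 0.60. Of 20 G1 regulators 10 were above and 5 below, beside 19.9% and 16.1% of all genes. CCND2, a D-type cyclin, stood at 7.35 and 7.69, against 11.89 and 11.83 in UHO-1 and 12.76 and 12.66 in SUP-HD1. CCND3, the D-type cyclin that T cell precursors need in mice, stood at 11.60 and 11.63, against 9.52 and 9.63 in UHO-1 and 8.996 and 9.01 in SUP-HD1. CDK6 and CCNE1 had distances of 1.499 and 1.52, and the inhibitor CDKN1A -3.02. MYC and ribosome genes were below for 6 of 17 and above for 3, beside 16.1% and 19.9% of all genes, with MYCN at 1.40. BCL2 family genes were below for 4 of 15 and above for 2, beside 16.1% and 19.9% of all genes, with the death agonists BMF at -0.91 and BID at 1.41.

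Among genes of other kinds, HOX genes were below for 7 of 18 and above for 0, with HOXB9 at -2.47; without L1236 vehicle replicate 2 the count below was 4 of 18. Cancer-testis genes were below for 1 of 12 and above for 0, beside 16.1% and 19.9% of all genes. The 1 below was PRAME, at 5.87 and 5.74, against 10.62 and 10.72 in UHO-1 and 11.04 and 10.91 in SUP-HD1. Without L1236 vehicle replicate 1 or without either SUP-HD1 vehicle array 1 cancer-testis gene was above. Metallothioneins were above for 2 of 8, near the 19.9% of all genes, with MT1F at 3.02. Myeloid markers were above for 3 of 14 and below for 3, shares near the background, with AIF1 at 4.93, VCAN at 2.49 and MRC1 at 2.16, and a mean level of 6.47 to 6.59, against 6.23 to 6.30 in UHO-1 and 5.92 to 6.05 in SUP-HD1. Stromal markers were above for 3 of 16 and below for 2, also near the background, with PECAM1 at 5.18, SPARC at 2.53 and ACTA2 at -2.36. The other probe set of PECAM1, at a mean of 3.35 over the vehicle arrays, differed by 0.65 from the mean of the lines. Epithelial markers, beside 16.1% of all genes below and 19.9% above, were below for 2 of 9 and above for 0. These were KRT18 at -0.51, whose other probe set differed by -0.0092 from the mean of the lines, and CDH1 at -0.37. CDH1 missed the threshold without L1236 vehicle replicate 2 or without either UHO-1 vehicle array (adjusted p 0.051 to 0.0684 by limma), which left 1 of 9 below. The defining genes CD14, CSF3R, MPO and COL1A1 were not beyond both lines. Whether cells of another type contributed to these values was not tested. Housekeeping genes were above for 6 of 11 and below for 2, beside 19.9% and 16.1% of all genes, and all by less than 1 log2 unit. GUSB had a distance of 0.57 and ACTB of -0.30, and 1 gene was below without L1236 vehicle replicate 1. GAPDH was not beyond both lines, at 13.67 and 13.72, against 13.62 and 13.58 in UHO-1 and 13.75 and 13.81 in SUP-HD1.

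The line differences recurred in the 4-OHT arrays, which come from the same lines. The levels of those arrays did not enter the vehicle differences above, but they entered the estimate of the spread behind the calls, so the calls in the arms are not independent. There 3154 genes lay above both lines (20.4%) and 3091 below (20%). Of the genes above in vehicle 77.6% were above with 4-OHT, which is 76.0% of those above with 4-OHT. Of the genes below in vehicle 86.7% were below with 4-OHT, which is 69.7% of those below with 4-OHT. Among genes at least 1 log2 unit beyond both lines, 715 of 870 above and 656 of 744 below kept at least that distance, and 0 lay beyond both lines on the other side. By that size 5.74% of all genes lay above and 5.86% below with 4-OHT. CD3E, CD1B, IRF4, MSC and HLA-DPA1 had distances of 6.67, 6.54, -5.73, -5.67 and -6.41 with 4-OHT.

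Some named genes differed between the arms. PRDM1 stood out: with 4-OHT its mean was 10.36 in the arrays labelled L1236, against 10.20 in UHO-1 and 9.88 in SUP-HD1, so that its low vehicle level was no longer beyond both lines. The difference from the mean of the lines was 4.60 log2 units higher with 4-OHT than with vehicle (adjusted p 3.23e-12 by limma, a test that 20.6% of all genes passed). CD79A averaged 11.70 with 4-OHT in the arrays labelled L1236, against 6.05 in UHO-1 and 6.44 in SUP-HD1.

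**Figure D4:**
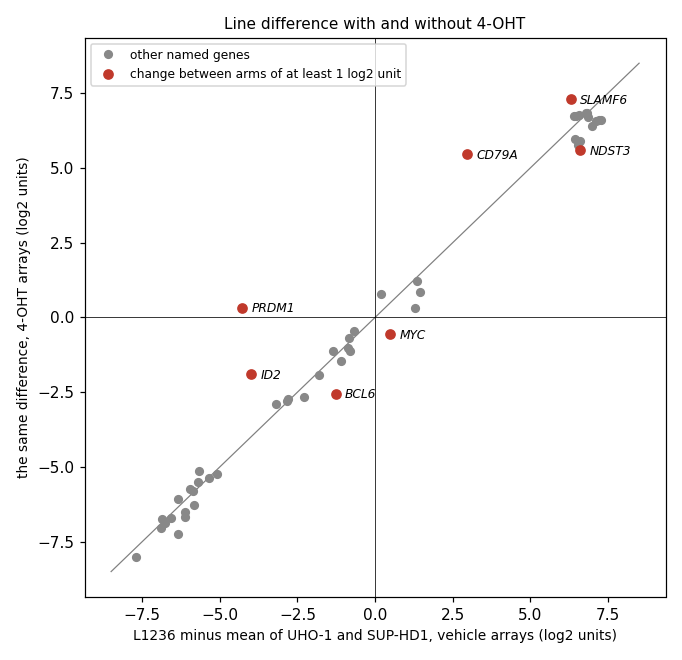
Difference of the arrays labelled L1236 from the mean of UHO-1 and SUP-HD1 in vehicle arrays (horizontal axis) and in 4-OHT arrays (vertical axis), in log2 units, 1 point for each gene named for its distance or fixed as always reported. The line marks equal differences, and red points are genes whose difference changed by at least 1 unit between arms. PRDM1, CD79A and ID2 lie above the line, by 4.60, 2.49 and 2.09 units.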

How the data were processed

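RNA of the 3 lines was measured on Affymetrix Human Gene 1.0 ST arrays, per the labels' protocols. The authors deposited log2 values from RMA, per the submitters' processing notes; the method removes background, brings arrays to 1 distribution and joins probes into probe sets. These arrays share 1 normalisation run: their sorted values differed by at most 0.204, against at least 0.712 from those of KM-H2 and L428, which were not compared. Medians of the 6 vehicle arrays ran from 6.26 to 6.38, and replicate arrays of a line differed with an SD of 0.144 to 0.204. Precision is limited by the number of arrays, which have no read depth.

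Of 33268 probe sets 19457 had 1 gene symbol, 1751 had several and 12060 were not listed and stay unnamed. RefSeq's GRCh38.p14 table held 19426 of the named probe sets and changed 0 symbols. The array's genome build is not given in the sources used here. Where a gene had more than 1 probe set (767 genes), the brightest on average was kept. Genes with a log2 value of at least 5 in at least 2 of 6 vehicle arrays were kept (15482 of 18416). limma 3.58.1 in R 4.3.3 (lmFit, eBayes with an intensity trend) was fitted to the 12 arrays as 6 group means, leaving 6 residual and 10.4 prior degrees of freedom; the 4-OHT arrays inform only the spread in vehicle contrasts. P-values were adjusted by Benjamini-Hochberg over all kept genes. The pipeline was tested on simulated data.

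Named genes were the 15 furthest above and below both lines, up to 6 members of each of 44 lists with the largest distance or lying against the list, and a fixed set; genes chosen after their values were seen are marked. Y-linked genes and XIST were left out. The members and lists were chosen with earlier results of these data known. Alternatives changed the arrays in the fit, the floor, the scaling, the trend, the probe set rule and the replicate block, and left out each array. Samples of a group were numbered by their titles; the numbers were checked for pairing. Promoters came from RefSeq.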

Additional observations from a re-analysis of the deposited data

Results flagged for a closer look

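The difference of the arrays labelled L1236 from the mean of UHO-1 and SUP-HD1 was compared between the 4-OHT and vehicle arrays for 51 genes, those named for their distance or fixed as always reported. It differed between the arms for 24 of them (limma interaction term, adjusted p from 3.23e-12 to 0.0377), beside 20.6% of all 15482 genes tested. The genes named for their distance were chosen on the same vehicle arrays that enter this term, so nothing is read from that count. The values below are the difference with 4-OHT minus the difference with vehicle, in log2 units.

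It was higher with 4-OHT for PRDM1 at 4.60, CD79A at 2.49, ID2 at 2.09, SLAMF6 at 1.00, FOXO1 at 0.61 and ABCD2 at 0.52. It was lower for BCL6 at -1.29, MYC at -1.05, NDST3 at -1.03, PTPN1 at -0.96, IL13RA1 at -0.89, RAG2 at -0.77, CD1E at -0.72, ADA at -0.68 and NOTCH1 at -0.60. It was also lower for CD1B at -0.59, PLA2G4A at -0.58, GPR174 at -0.57, ITM2A at -0.55, DNTT at -0.47, RIPK2 at -0.43, PEG10 at -0.38, TNFAIP3 at -0.38 and GATA3 at -0.30. Of these, PRDM1 and NOTCH1 were beyond both lines in the vehicle arrays and not in the 4-OHT arrays. For ADA, CD1B, CD1E, DNTT and RAG2 the shift was small beside distances of over 5 log2 units in both arms.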

How the results depend on the processing

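The counts over all genes stayed within 1.5 times their value under all alternatives that were run. Over them, genes above both lines numbered 2713 to 3229 and genes below 2169 to 2631, and those at least 1 log2 unit beyond 731 to 940 above and 713 to 775 below. Leaving out single arrays gave 2730 to 3086 above and 2233 to 2447 below. Counts within some lists moved further. Members above ran from 2 to 5 for MYC and ribosome genes and for receptor tyrosine kinases, from 1 to 3 for myeloid markers, from 0 to 2 for interleukins, from 3 to 5 for GIMAP and 6q23 genes, from 0 to 1 for chemokines and cancer-testis genes and from 1 to 2 for NF-kB genes. Members below ran from 4 to 7 for HOX genes, from 2 to 5 for B cell surface genes, from 3 to 5 for adhesion genes and from 1 to 2 for epithelial, housekeeping and cancer-testis genes. A higher floor also removed members from the lists, so the lowest counts do not all stand for lost calls. With a floor of 6 or of 7 only 3 GIMAP genes were tested, and 3 were above. With a floor of 7, 1 of 6 myeloid markers was above, and 2 of 7 B cell surface genes and 4 of 7 HOX genes were below. For 202 of 208 results on named genes the direction and the side of the threshold held under every alternative; the exceptions were FOXO1, B2M, LMO2, S1PR1 and CDH1, whose values stand beside them in the report, and GAPDH. Not every gene that the naming rule allows was named, and the choice among them was made with values known. The average difference of GAPDH, 0.00543, turned to -0.0295 with cyclic loess and ran from -0.0226 to 0.0334 when single arrays were left out. It was below 0 without L1236 vehicle replicate 2, without UHO-1 vehicle replicate 2 and without SUP-HD1 vehicle replicate 1, and passed the threshold in none of these. Rescaling by median centring, quantile normalization or cyclic loess moved the share of higher calls between 50.1% and 53.6% and the median difference of all genes by less than 0.02 log2 units. The cause of these changes was not tested. Replicate numbers gave no common pairing of the arrays. Deviations of same-numbered arrays correlated at -0.208 for L1236 and UHO-1, -0.497 for L1236 and SUP-HD1 and 0.24 for UHO-1 and SUP-HD1. The arrays thus shared some deviations, in directions that the numbers do not follow, and their source was not tested. With the replicate number as a block (replicate block), 3088 genes lay above and 2476 below both lines, and 870 and 744 by at least 1 unit.

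Low signal limits the smallest levels: values near 4 to 5 are close to the background of the array, so large distances from such values depend on where that background lies. Only 1 line carries the L1236 label, and all its arrays show the same pattern.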

Other observations

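Zinc finger genes named ZNF were counted after their values were seen, and no test was made. On chromosome 19, where many of them lie in clusters, 61 of 205 tested ZNF genes were at least 1 log2 unit above both lines in the arrays labelled L1236 (29.8%) and 2 were below, with a median difference from the mean of the lines of 0.74. On other chromosomes 14 of 226 were above (6.19%) and 6 below, with a median of 0.083. Over all genes tested 5.62% were above by that size and 4.81% below.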
